A study of Rattus norvegicus and Mus musculus with 17 samples.

Results

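The transcripts described here are stathmin, encoded by Stmn1, and the tubulins Tuba1a, Tuba1b and Tubb5. These 4 genes were looked up by symbol in 3 tables of liver RNA-seq values, and all 4 were listed in each table, out of 14072 mouse or rat genes listed in any of them. They were selected on their RPKM values in these tables, being higher in 2 liver tumour models and in regenerating liver, so their levels in those comparisons are given as a description without a test. C57BL/6 male mice had received diethylnitrosamine (DEN, a liver carcinogen) at 50 mg/kg when 14 days old and TCPOBOP, which activates the nuclear receptor CAR and promotes tumours, at 2 mg/kg 30 days later. One group was killed at 5 months, when tumours had not yet formed (n = 3), and the other at 8 months, when tumours were present (n = 3), so that age and tumour cannot be told apart and no mice without DEN were compared here. Male ACI rats gave untreated control liver (n = 3), regenerating liver 24 hours after partial hepatectomy at 10 to 12 weeks of age (n = 4), and Morris hepatoma (n = 4). The hepatoma grew from cells of the rat line MH3924a placed in the liver of rats of 10 weeks and was taken 2 weeks later, so all of its libraries come from 1 cell line. The same control libraries serve both rat comparisons. Whether every library is from a separate animal is not stated, so p-values describe only the spread among libraries, which may be technical.

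Microtubules are polymers of alpha- and beta-tubulin dimers and form the mitotic spindle when a cell divides. Mammals encode several alpha and beta isotypes, and Tuba1a, which is best known from developing neurons, Tuba1b, which most tissues express, and Tubb5, a widely expressed beta isotype, are among them. Stathmin binds free tubulin dimers and favours the shrinking of microtubules until it is phosphorylated as cells enter mitosis, and both it and tubulin are abundant in dividing cells while resting hepatocytes hold little stathmin.

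The promoter sequences of the rat genes are shown because all 4 transcripts were higher in the same groups while differing in how much. Each run is the 250 bases before the start of the gene in the RefSeq table for GRCr8, written 5′ to 3′ on the strand of the gene and joined by gene ID, which matched for all 4. Capitals mark every match, on either strand, to CCAAT, to the E2F-type motifs TTTGGCGC, TTTCGCGC, TTTCCCGC and TTTGCCGC, to the GC box GGGCGG, to the CHR element TTTGAA, and to TATAAA or TATATA. On the other strand the GC box reads CCGCCC.
Stmn1 (chr5:151964929-151965178, plus strand): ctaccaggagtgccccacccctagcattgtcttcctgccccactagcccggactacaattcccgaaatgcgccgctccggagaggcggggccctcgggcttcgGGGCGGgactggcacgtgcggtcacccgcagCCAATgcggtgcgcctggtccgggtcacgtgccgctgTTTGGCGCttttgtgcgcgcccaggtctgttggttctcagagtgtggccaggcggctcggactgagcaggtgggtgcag
Tuba1a (chr7:131995820-131996069, minus strand): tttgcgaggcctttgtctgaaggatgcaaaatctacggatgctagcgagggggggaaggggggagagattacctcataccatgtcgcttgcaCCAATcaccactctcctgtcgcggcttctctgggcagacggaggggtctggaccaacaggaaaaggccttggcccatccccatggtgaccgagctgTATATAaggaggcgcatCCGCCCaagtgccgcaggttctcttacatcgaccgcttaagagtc
Tuba1b (chr7:131972588-131972837, minus strand): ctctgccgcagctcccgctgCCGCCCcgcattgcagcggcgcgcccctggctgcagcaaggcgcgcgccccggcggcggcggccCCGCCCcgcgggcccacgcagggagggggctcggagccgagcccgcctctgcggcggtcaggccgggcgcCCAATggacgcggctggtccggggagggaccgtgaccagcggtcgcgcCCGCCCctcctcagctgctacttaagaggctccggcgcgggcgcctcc
Tubb5 (chr20:2917327-2917576, plus strand): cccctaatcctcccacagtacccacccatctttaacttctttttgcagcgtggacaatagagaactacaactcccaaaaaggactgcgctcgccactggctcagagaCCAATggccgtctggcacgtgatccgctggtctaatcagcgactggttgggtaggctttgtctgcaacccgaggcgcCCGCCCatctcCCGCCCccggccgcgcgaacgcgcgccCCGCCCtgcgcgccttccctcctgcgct
Each of the 4 runs held 1 CCAAT on the strand of the gene, whose first base lay 116 bases before the start in Stmn1, 158 in Tuba1a, 96 in Tuba1b and 143 in Tubb5. This pentamer was in 34.0% of 33469 rat promoter windows of that length. Stmn1 was the only gene of the 4 with an E2F-type match, TTTGGCGC at 79 bases before the start, and such a match was in 1.73% of the windows. The GC box was matched 1 time each in Stmn1 and Tuba1a and 3 times each in Tuba1b and Tubb5, against 30.5% of windows with any match. Tuba1a alone held a TATA match, TATATA at 62 bases before its start (16.1% of windows), and TTTGAA was found in none of these 4 runs (16.2% of windows). GC content was 67.6% for Stmn1, 56.8% for Tuba1a, 80.4% for Tuba1b and 62.4% for Tubb5, with a median of 51.2% over the windows. Tuba1a and Tuba1b are neighbours on rat chromosome 7. A match is a run of letters, not a bound site, and Stmn1 and Tuba1a also have transcripts that start further upstream.

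Values are read as RPKM, reads scaled to transcript length and library depth, which allows levels to be set side by side between genes. The headers name no unit, and this reading rests on low values of the mouse table. It was not checked in the rat tables, so the rat levels and ratios between genes below depend on it. The tables list only genes whose deposited p-value was under 0.05, namely 4649 genes in DEN, 9082 in hepatoma and 2093 in regenerating liver, and unlisted genes cannot be described. Mouse depths implied by the steps of the lowest values were 31.6 to 40.9 M reads per library, which puts 160 to 8130 reads behind each mouse value of the 4 genes, and rat depths were not derived. In the hepatoma table all 8 hepatocyte markers searched were listed, and their summed RPKM ran from 60953 to 96115 in control liver but was 828, 32.9, 15391 and 14265 in hepatoma libraries 1 to 4. Hnf4a, a hepatocyte transcription factor, was listed at 0 in 1 hepatoma library. Control library 3 stood apart from the other controls, with a sum of 22.2 RPKM over 6 proliferation markers against 10.7 and 10.2.

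Stmn1 was low in both reference groups, DEN liver before tumours and rat control liver, and higher in every other group. In mice (GeneID 16765) it was at 6.78, 8.63 and 6.63 RPKM in the 3 libraries before tumours and at 42.4, 23.8 and 30.8 RPKM in those with tumours. The lowest library with tumours was 2.76 times the highest one before them, and the means were 7.35 ± 1.11 and 32.3 ± 9.37 RPKM (SD, n = 3 each), a ratio of 4.4. In rats (GeneID 29332) control liver had 5.01, 5.96 and 8.08 RPKM. Regenerating liver had 60.5, 98.2, 49.99 and 114.9 RPKM, all above all controls. Hepatoma had 309.8, 376, 135 and 231 RPKM, and its lowest library lay above the highest regenerating one. The rat means were 6.35 ± 1.57, 80.9 ± 30.7 and 263 ± 104 RPKM (SD, n = 3, 4 and 4), so the level in regenerating liver was 12.7 times and in hepatoma 41.5 times that of control liver. On the log2(RPKM + 1) scale the difference from control was 1.97 in DEN liver with tumours, 3.42 in regenerating liver and 5.09 in hepatoma. In these bulk samples, more cells that express a gene and more of its RNA per cell cannot be told apart.

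These differences sit on a shift shared by the listed genes. The median difference over the genes tested was -0.56 in DEN, 0.53 in regenerating liver and 1.58 in hepatoma on the log2(RPKM + 1) scale. Relative to that median, Stmn1 was higher by 2.53, 2.89 and 3.51. Among all genes tested, 24.9% in DEN, 89.4% in regenerating liver and 87.2% in hepatoma had every library of the altered group above every library of the reference group, as the 4 genes did in each comparison. Nothing is read from that count, since it follows from how they were chosen.

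Tuba1a was the least abundant of the 4 in both reference groups and in regenerating liver, and its level in hepatoma was the furthest from control. In mice (GeneID 22142) it was at 4.504, 3.45 and 2.79 RPKM before tumours and at 7.05, 8.42 and 9.76 RPKM with tumours. The groups did not overlap, with means of 3.58 ± 0.867 and 8.41 ± 1.36 RPKM (SD, n = 3 each). In rats (GeneID 64158) it was at 1.78, 1.06 and 2.38 RPKM in control liver and at 6.65, 6.86, 5.47 and 9.12 RPKM in regenerating liver. The hepatoma libraries held 369, 465, 165 and 259 RPKM, so that the lowest of them was 69.3 times the highest control value. The means were 1.74 ± 0.665 RPKM in control liver, 7.02 ± 1.53 in regenerating liver and 315 ± 131 in hepatoma (SD, n = 3, 4 and 4). That is 4.04 times the control level in regenerating liver and 181 times in hepatoma. The log2(RPKM + 1) differences from the reference group were 1.05 in DEN, 1.56 in regenerating liver and 6.77 in hepatoma, or 1.6, 1.03 and 5.19 above the median of the genes tested.

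Tuba1b was the more abundant of the 2 alpha-tubulins in every library. Mouse libraries (GeneID 22143) held 23.9, 23.2 and 19.1 RPKM before tumours and 54.2, 31.8 and 66.1 RPKM with tumours. Library 2 with tumours came closest to the earlier group, at 1.33 times its highest value, and the means were 22.1 ± 2.62 and 50.7 ± 17.4 RPKM (SD, n = 3 each). Rat control liver (GeneID 500929) held 27.1, 31.1 and 21.1 RPKM, and regenerating liver 106, 122, 80.3 and 174 RPKM. In hepatoma the 4 libraries held 929.5, 1258, 633 and 798 RPKM, far above both other rat groups. The means were 26.4 ± 5.01, 120.7 ± 39.7 and 905 ± 265 RPKM (SD, n = 3, 4 and 4), which is 4.57 times the control level in regenerating liver and 34.3 times in hepatoma. The differences in log2(RPKM + 1) were 1.11 in DEN, 2.11 in regenerating liver and 5.02 in hepatoma, or 1.67, 1.58 and 3.44 above the median of the genes tested. In the authors' deposited table the DEN difference of Tuba1b had a p-value of 0.048, the member value closest to the limit of 0.05 for being listed.

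The split between Tuba1a and Tuba1b is uncertain, because reads can come from sequence that these genes share. In the longest mouse transcripts, 43.4% of the 50-base windows of Tuba1a also occur in Tuba1b and 46.9% in Tuba1c. Of the windows of Tuba1b, 44.9% occur in Tuba1a and 59.3% in Tuba1c. How reads that match several genes were counted is not given in the sources used here, and rat transcripts were not compared. Summed, Tuba1a and Tuba1b were at 25.7 ± 3.40 and 59.1 ± 17.9 RPKM in mice before and with tumours, and at 28.2 ± 4.36, 127.7 ± 41.2 and 1220 ± 393 RPKM in rat control, regenerating liver and hepatoma (SD). Stmn1 shares 36.5% of its windows with other genes, none of them another protein-coding gene, and Tubb5 shares 0.115%.

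Tubb5 was the most abundant of the 4 in each group mean and varied least within control liver. In mice (GeneID 22154) it was at 52.6, 44.1 and 46.4 RPKM before tumours and at 77.6, 73.7 and 75.0 RPKM with tumours. This was the smallest ratio of the 4 genes in DEN liver, 1.58, between means of 47.7 ± 4.44 and 75.4 ± 1.96 RPKM (SD, n = 3 each). Rat control liver (GeneID 29214) had 31.1, 32.4 and 32.0 RPKM, and regenerating liver 108, 148, 70.3 and 205 RPKM. Hepatoma libraries 1 to 4 had 1841, 1479.95, 924 and 1144 RPKM, and no library of these 3 groups overlapped with another group. The means were 31.8 ± 0.623, 133 ± 57.6 and 1347 ± 401 RPKM (SD, n = 3, 4 and 4), or 4.17 times control in regenerating liver and 42.3 times in hepatoma. The differences in log2(RPKM + 1) were 0.65 in DEN, 1.92 in regenerating liver and 5.31 in hepatoma, which is 1.21, 1.39 and 3.73 above the median of the genes tested.

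**Figure D1:**
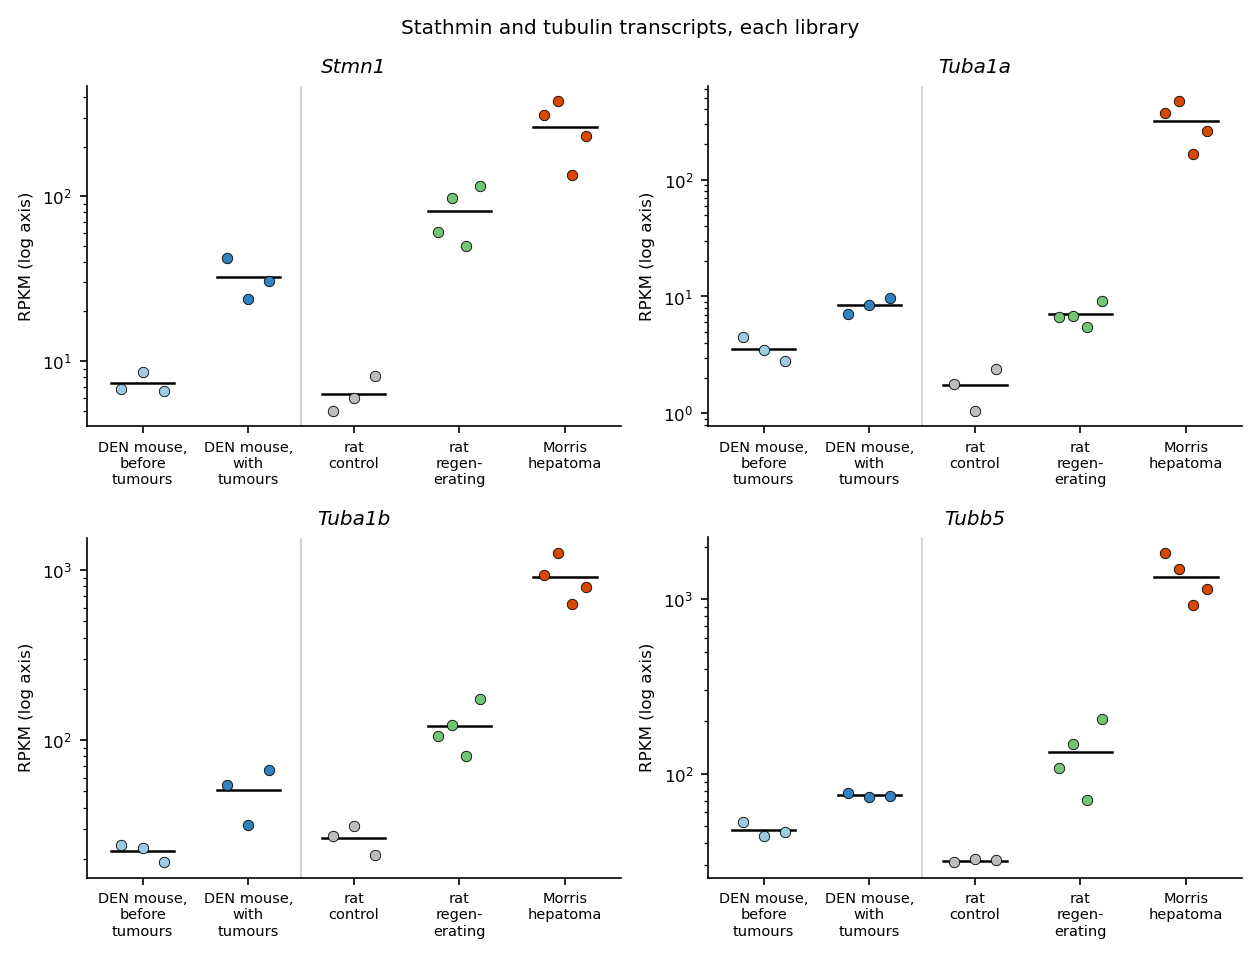
RPKM of Stmn1, Tuba1a, Tuba1b and Tubb5 in each library on log axes, with points for libraries and bars for group means; mouse groups stand left of the grey line and rat groups right of it. Hepatoma libraries sit above all other rat libraries for each gene, and Tuba1a moves least between control (mean 1.74) and regenerating liver (7.02) but reaches 315 in hepatoma.

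Ordered by level, the rat groups ran from control through regenerating liver to hepatoma for each of the 4 genes, with no overlap between neighbours. Between the genes the order was not the same. In hepatoma, Tuba1a (165 to 465 RPKM) and Stmn1 (135 to 376 RPKM) overlapped in range, whereas in regenerating liver every Stmn1 value exceeded every Tuba1a value. Tubb5 and Tuba1b overlapped in range in both of these groups.

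Hepatoma was then compared directly with regenerating liver. This contrast was not used to choose the genes, but the values of both groups were. The p-values of this contrast, here and below, are therefore not independent of that choice. All 4 transcripts were higher in hepatoma, but the tubulins by far more than stathmin. Tuba1a differed by 5.21 ± 0.29 on the log2(RPKM + 1) scale (SE; 44.8 times as a ratio of means; limma adjusted p = 2.6e-07), with the lowest hepatoma library at 18.1 times the highest regenerating one. Tubb5 differed by 3.39 ± 0.33 (10.1 times; limma adjusted p = 4.6e-05) and Tuba1b by 2.91 ± 0.25 (7.5 times; limma adjusted p = 2e-06). Stmn1 differed by 1.67 ± 0.36 (3.25 times; limma adjusted p = 0.02), and its groups were separated by a factor of 1.18 only. Every hepatoma library exceeded every regenerating library for each of the 4 genes.

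That contrast has a high background. Of the 1673 genes listed in both rat tables and tested, 80.8% were called higher in hepatoma and 84.5% had groups that did not overlap in that direction, so 4 of 4 is near what most of these genes showed. The median difference was 1.47. Relative to it Stmn1 was higher by 0.2, Tuba1b by 1.43, Tubb5 by 1.92 and Tuba1a by 3.74, and 58.3%, 90.1%, 94.3% and 99.3% of the genes tested had a smaller difference. With library medians set equal the call for Stmn1 was lost, at 0.13 with a limma adjusted p of 1, and with quantile normalization it was 0.25 with an adjusted p of 1. It was also lost without hepatoma library 1, 2 or 4 or regenerating library 1, one at a time (limma adjusted p = 0.094, 0.069, 0.056 and 0.073). Tuba1a, Tuba1b and Tubb5 passed under each of these settings.

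**Figure D2:**
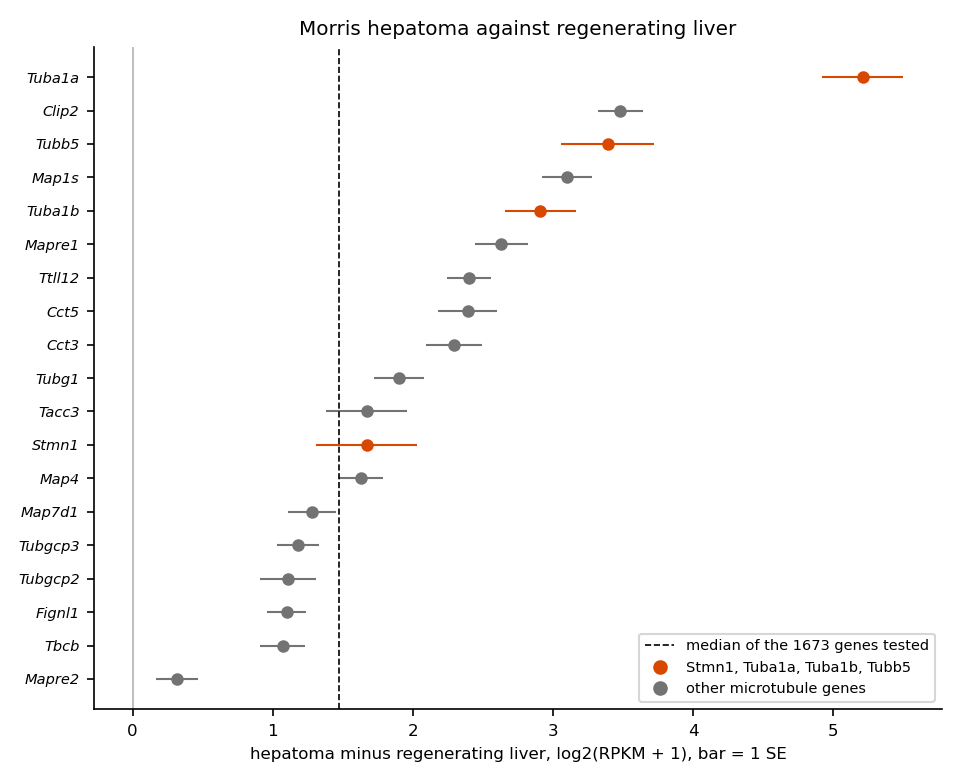
Difference between Morris hepatoma and regenerating liver in log2(RPKM + 1) for the 4 genes (orange) and other microtubule genes in both rat tables (grey), with bars of 1 SE and a dashed line at the median of the 1673 genes tested. Tuba1a stands furthest right at 5.21, and Stmn1 at 1.67 lies near the dashed line at 1.47.

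Ratios within a library do not depend on how libraries are scaled, and 3 of them were computed. The ratio of Tuba1a to Tuba1b was 0.397, 0.370, 0.261 and 0.324 in the hepatoma libraries and 0.0630, 0.0560, 0.0680 and 0.0523 in regenerating liver, so the groups lay far apart. Control liver had 0.0656, 0.0340 and 0.113, a range that includes all regenerating values. Hepatoma exceeded regenerating liver by 2.49 in log2 (exact two-sided permutation p = 0.0286, the smallest that 4 against 4 libraries allow, and 0.0429 adjusted over the 3 ratios). In mice this ratio was 0.188, 0.149 and 0.146 before tumours and 0.130, 0.265 and 0.148 with tumours, and these groups overlapped. The uncertain split of reads between the pair of genes applies to this ratio.

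Stmn1 relative to the sum of the 3 tubulins was 0.275, 0.354, 0.320 and 0.296 in regenerating liver and 0.0987, 0.117, 0.0786 and 0.105 in hepatoma. Regenerating liver was thus higher in every library, and the hepatoma minus regenerating difference was -1.65 in log2 (exact two-sided permutation p = 0.0286, 0.0429 adjusted over the 3 ratios). Control liver ranged from 0.0834 to 0.146, and 3 of the 4 hepatoma values lay in that range and 1 below it. In mice the ratio was 0.0836 to 0.122 before tumours and 0.204 to 0.305 with tumours, a description only. Tubb5 relative to Tuba1a plus Tuba1b, the beta isotype against the alpha isotypes, was 0.858 to 1.42 in hepatoma and 0.819 to 1.15 in regenerating liver. These groups overlapped, with a log2 difference of 0.15 (SD 0.3 and 0.22; exact two-sided permutation p = 0.457, 0.457 adjusted over the 3 ratios).

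**Figure D3:**
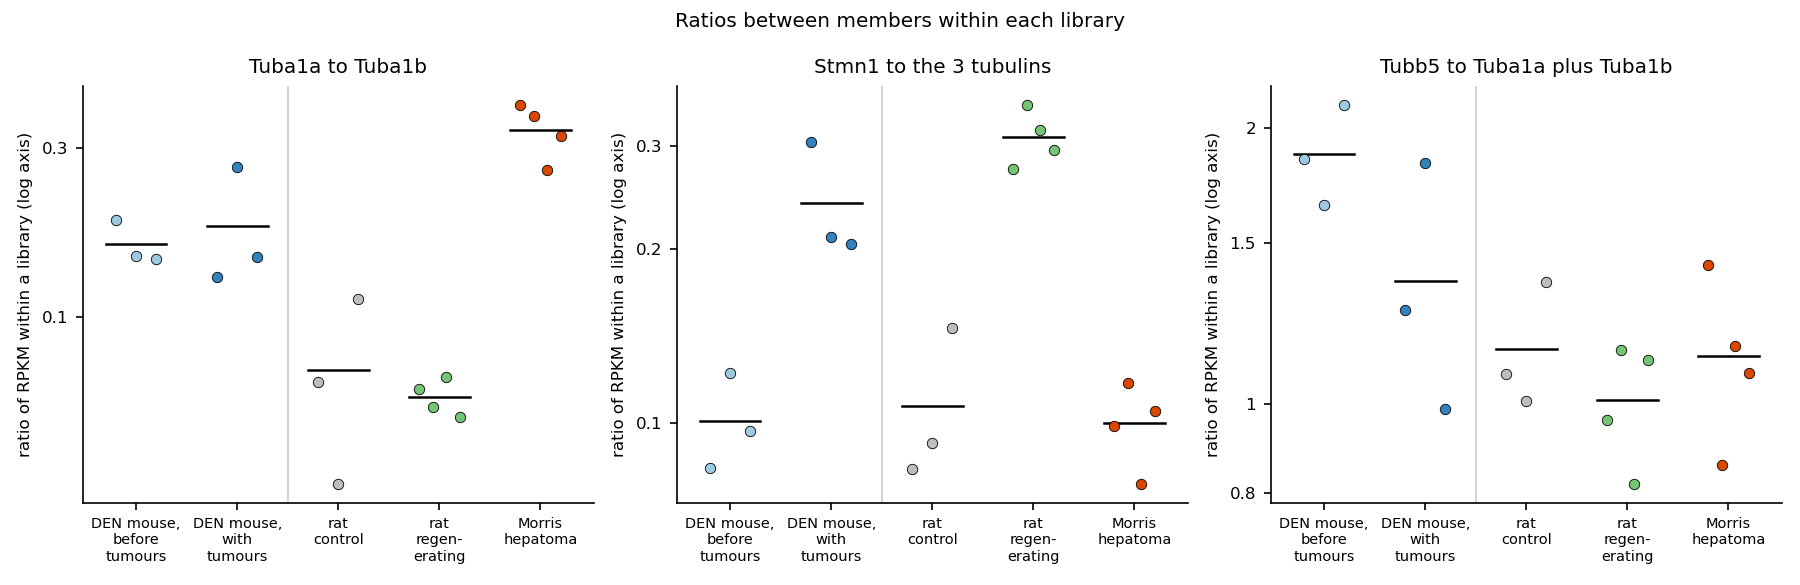
Within-library ratios of RPKM on log axes for each of the 5 groups, with points for libraries and bars for means. Tuba1a to Tuba1b is highest in hepatoma (mean 0.338), Stmn1 to the 3 tubulins is highest in regenerating liver (0.311) and about equal in control liver (0.107) and hepatoma (0.0999), and Tubb5 to the alpha-tubulins overlaps among the rat groups.

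In regenerating liver and hepatoma the 4 genes were lowest in the same library of each group. This was not so in mice or in control liver, where library 3 was the highest for Stmn1 and Tuba1a but the lowest for Tuba1b. Regenerating library 4 was the highest of its group for all 4 genes and library 3 the lowest, as they were for 54.8% and 28.3% of the 1631 tested genes whose regenerating libraries had a mean above control. The summed RPKM of the 5 proliferation markers listed was 49.4, 92.7, 36.5 and 120.5 in regenerating libraries 1 to 4, the same order of libraries as in each of the 4 genes. Hepatoma library 3 was the lowest for all 4 genes, as for 52.9% of 7229 tested genes above control. Libraries 1 and 2, with the lowest sums of hepatocyte markers, exceeded libraries 3 and 4 for each of the 4 genes, as they did for 50.9% of the same 7229 genes. The 6 proliferation markers of the hepatoma table summed to 428, 596, 381 and 387 RPKM in libraries 1 to 4. In DEN liver with tumours, library 2 was the lowest for 3 of the 4 genes, as for 46.3% of 917 genes tested with a difference above 0, and had the lowest sum of 4 proliferation markers, 6.58 RPKM against 15.6 in library 1 and 14.0 in library 3. Tuba1a was lowest in library 1, where these markers were highest. The part of dividing cells and of remaining hepatocytes in these levels was not tested.

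**Figure D4:**
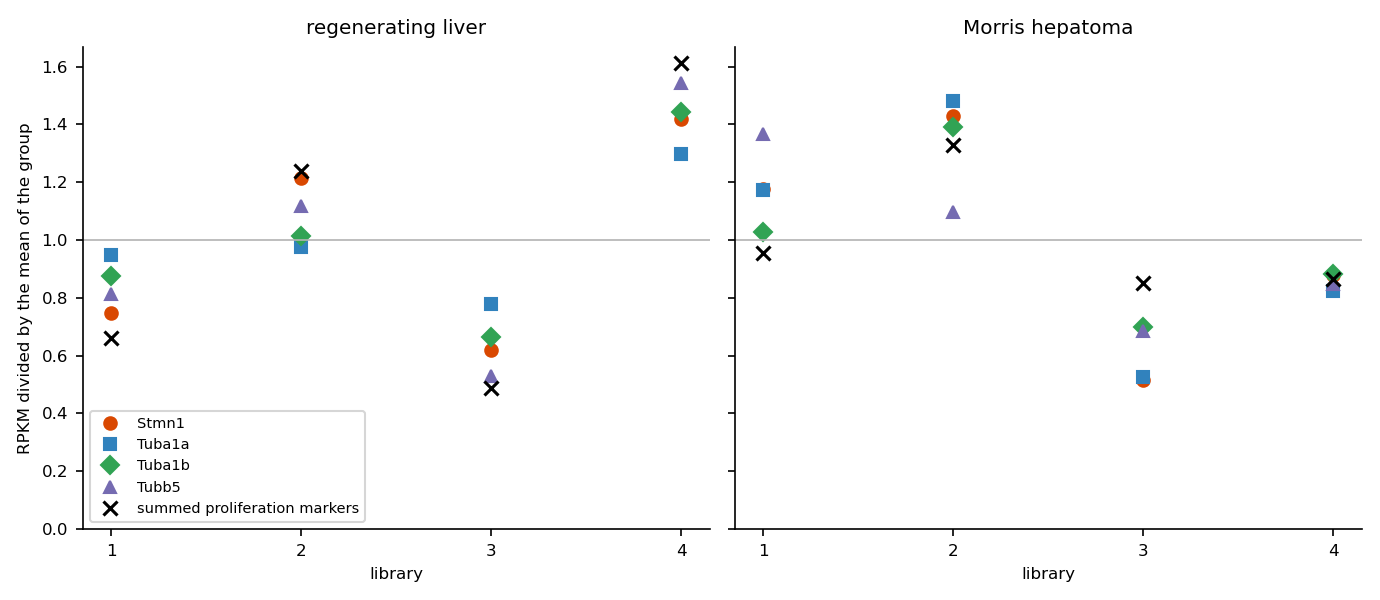
RPKM of each gene in regenerating liver and Morris hepatoma divided by the mean of its group, for libraries 1 to 4, with crosses for the summed proliferation markers. All 4 genes and the markers peak in regenerating library 4, and all 4 genes are lowest in hepatoma library 3. The marker sum of hepatoma library 3 (381 RPKM) is close to that of library 4 (387), and the highest is 596.

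The other tubulin isotypes differed between the models. In DEN liver with tumours Tubb6, a beta isotype, rose from 5.94 ± 0.625 to 33.2 ± 9.02 RPKM, a log2(RPKM + 1) difference of 2.27 ± 0.20 (SE; limma adjusted p = 0.00046). Tubb2a, also a beta isotype, rose from 80.7 ± 23.1 to 173 ± 33.0 RPKM (1.11 ± 0.23, limma adjusted p = 0.017), and its mean was above that of Tubb5 both before and with tumours. Tuba4a, an alpha isotype and the most abundant tubulin listed in mouse liver before tumours, fell from 138 ± 7.83 to 86.6 ± 13.6 RPKM (-0.68 ± 0.16, limma adjusted p = 0.029). This lay -0.12 from the median of the genes tested (-0.56), and quantile normalization turned it to 0.09. Leaving out 1 library ended the Tuba4a call in 5 of 6 cases, the exception being library 1 with tumours, and the Tubb2a call without library 1 or 2 before tumours or library 3 with tumours.

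In hepatoma 6 further tubulins were tested against control and all 6 rose, where 85.5% of the 8233 genes tested did. Tubb3, Tuba8 and Tubb2b were under 1 RPKM in every control library and so reached the filter through hepatoma alone. Their rise before any rescaling was fixed by that, and nothing is read from their direction. Tubb3, the beta isotype that marks neurons, was at 0.132, 0.0645 and 0.479 RPKM in control liver and at 54.6, 64.4, 38.7 and 41.5 RPKM in hepatoma. Its difference of 5.36 ± 0.22 (SE; limma adjusted p = 3.3e-07) was close to that of Tubb5, while none of the other 5 neuron markers searched was listed. Tubb6 was at 81.3, 116, 106 and 77.0 RPKM in hepatoma against 0.834, 0.668 and 11.0 RPKM in control liver, where library 3 stood out (4.83 ± 0.73, limma adjusted p = 0.0022; 5.76 without that library). Tuba1c rose from 29.1 ± 5.51 to 215 ± 30.6 RPKM (2.85 ± 0.21, limma adjusted p = 3.2e-06) and Tubb4b from 55.7 ± 24.2 to 197 ± 39.7 RPKM (1.89 ± 0.32, limma adjusted p = 0.0008). Tuba8 and Tubb2b stayed low, with means of 3.34 and 1.40 RPKM in hepatoma, and passed at 2.09 ± 0.17 and 1.06 ± 0.18 (limma adjusted p = 6e-06 and 0.00075). Tubb2b was below the shared shift of 1.58, and its difference was -0.60 with library medians set equal. That setting also ended the calls of Tubb4b (0.23) and Tuba8 (0.42). Of the family in regenerating liver, Tubb4a alone was listed besides the 4 genes, at 0.164 ± 0.0452 RPKM against 0.0285 ± 0.0279 in control liver, too low to be tested. Stmn4, the one other stathmin listed, had 0.344 ± 0.120 RPKM in hepatoma and 0.0129 ± 0.0207 in control liver and was likewise not tested.

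Among the 3 closely related alpha genes of rats the make-up differed between hepatoma and control liver. In control liver Tuba1c took 50.7 ± 1.18%, Tuba1b 46.1 ± 1.16% and Tuba1a 3.24 ± 1.78% of a summed 57.3 ± 9.84 RPKM (SD, n = 3). In hepatoma Tuba1b took 63.1 ± 1.14%, Tuba1a 21.3 ± 3.62% and Tuba1c 15.6 ± 3.53% of 1434 ± 417 RPKM (SD, n = 4). No library of either group had a share in the range of the other group for any of the 3 genes. The shared windows apply here too.

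**Figure D5:**
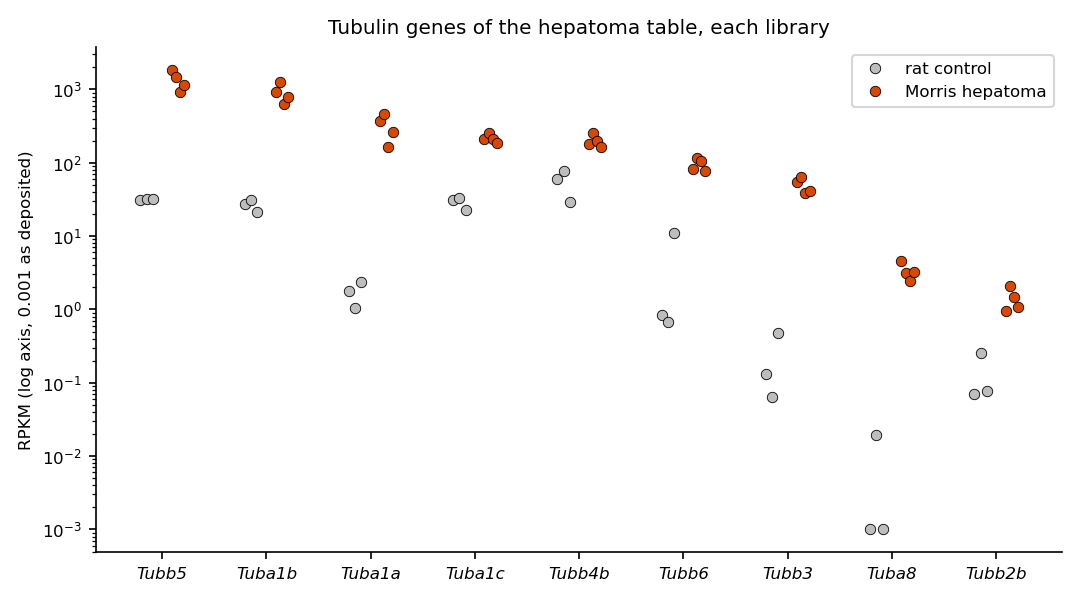
RPKM of the 9 alpha- and beta-tubulins listed in the hepatoma table, on a log axis, in control liver (grey) and Morris hepatoma (orange) libraries, ordered by hepatoma mean. Tubb5, Tuba1b and Tuba1a lead in hepatoma, and Tubb6 shows 1 control library (11.0) above the other 2.

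The wider microtubule machinery was described with 106 other genes in lists for tubulins and stathmins, the gamma-tubulin ring, tubulin folding, microtubule-associated and plus-end proteins, severing and tubulin-modifying enzymes. In DEN liver with tumours 20 of the 25 listed were tested, and 4 rose, 9 fell and 7 did not pass, where 17.9% of 3684 genes were called higher and 49.5% lower. Their median difference was -0.50, against -0.56 for all genes tested. Besides Tubb2a and Tubb6 the genes that rose were Clip2, a plus-end linker protein, from 1.07 to 4.57 RPKM (1.42 ± 0.15, limma adjusted p = 0.00081), and Tacc3, a spindle protein, which rose by 0.80 ± 0.20 (limma adjusted p = 0.033). Tacc3 was under 1 RPKM in every library before tumours and reached the filter through the group with tumours alone, so its rise was fixed by that. Tubg1, the gamma-tubulin that nucleates microtubules, fell from 32.2 ± 1.21 to 18.5 ± 1.43 RPKM (-0.77 ± 0.13, limma adjusted p = 0.0057), and Mzt2, a small protein of the same complex, fell by 1.13 (SE 0.19, limma adjusted p = 0.0064). Agtpbp1, which trims glutamates from tubulin tails, fell from 4.11 ± 0.228 to 0.935 ± 0.255 RPKM (-1.41 ± 0.13, limma adjusted p = 0.00057). Atat1, which acetylates alpha-tubulin, fell from 7.91 ± 1.71 to 2.93 ± 0.504 RPKM (-1.17 ± 0.17, limma adjusted p = 0.0036). Tbcel, a relative of a tubulin folding cofactor, changed by -1.0, Mtus1, a microtubule-associated protein, by -0.99 and Katna1, the cutting subunit of the severing enzyme katanin, by -0.57 (limma adjusted p = 0.0019, 0.012 and 0.034). Both scalings ended the calls of Tubg1, Mtus1 and Katna1, and quantile normalization also ended those of Mzt2 and Tbcel. Leaving out library 1 before tumours ended the call of Mtus1, and leaving out any of 5 of the 6 libraries that of Katna1. The 4 rises and 9 falls became 6 and 4 with library medians set equal and 5 and 2 with quantile normalization, so that the balance of direction turned, and Agtpbp1 and Atat1 passed under both. Leaving out library 1 or 2 before tumours, or library 3 with tumours, left 2 of the 4 rises, and leaving out library 1 before tumours left 5 of the 9 falls. Markers of other cells moved as well. The 4 proliferation markers listed all passed as higher, as did 4 of 5 endothelial markers, whose sum ran from 15.7 to 21.2 RPKM before and from 25.4 to 44.8 with tumours. The 4 proliferation markers were each under 1 RPKM in every library before tumours. They reached the filter through the group with tumours alone, so their direction was fixed by that. Acta2 of stellate cells and Sox9 of cholangiocytes rose (1.70 ± 0.24 and 1.26 ± 0.20, limma adjusted p = 0.0035 and 0.0053), while Reln of the stellate list did not pass (0.37 ± 0.13, limma adjusted p = 0.13). Macrophage markers were mixed. Clec4f of Kupffer cells fell (-1.97 ± 0.49, limma adjusted p = 0.046) and Cd68 rose (0.45 ± 0.12, limma adjusted p = 0.048). Vsig4 did not pass (-1.56 ± 0.47, limma adjusted p = 0.098), and Cd163 was too low to be tested. Of 4 hepatocyte markers Alb and Apoa1 rose (ratios of 3.36 and 2.48), Cyp2e1 fell (0.0893) and Cps1 did not pass, and their sum ran from 38419 to 50917 RPKM before and from 119283 to 132965 with tumours. The part of these cells in the microtubule genes was not tested.

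In hepatoma against control, 66 of 69 listed were tested, and 63 rose, 2 fell and 1, Tbcel, did not pass, where 85.5% of 8233 genes were called higher and 8.73% lower. The median was 1.92 against 1.58 for all genes tested. All 9 genes of the gamma-tubulin ring list that were tested rose, led by Tubg1 (9.45 ± 0.315 to 67.8 ± 11.8 RPKM, 2.70 ± 0.18) and Tube1, the epsilon-tubulin of centrioles (2.59 ± 0.18). Of 18 folding genes 17 rose, with the chaperonin subunits Cct6a at 3.39 ± 0.25 (18.6 to 207 RPKM) and Cct7 at 3.30 ± 0.22. Among associated and plus-end proteins 16 of 18 rose, Clip2 at 3.88 ± 0.19 and Map1s at 3.8 ± 0.21 with the largest differences. The 5 severing genes tested rose, with Katnal1, a relative of the cutting subunit of katanin, at 2.71 ± 0.20, while Fign, a sixth one listed, was too low to be tested, at 0.368 ± 0.115 RPKM in control liver and 0.0402 ± 0.0261 in hepatoma. All 10 modifying enzymes tested rose, led by Vash2, which removes the last tyrosine of alpha-tubulin, at 4.0 ± 0.24 (0.0158 to 15.8 RPKM) and Ttll12 of the tyrosine ligase-like family at 2.96 ± 0.18. Of the 66 genes tested 14 were under 1 RPKM in every control library and so reached the filter through hepatoma alone, among them Katnal1, Fignl1, Clip2, Vash2 and Tube1, and their rise was fixed by that. Limma adjusted p-values of the genes named as rising were between 5.5e-07 and 2.2e-05. The 2 that fell were Map7, a kinesin-binding microtubule protein (-1.58 ± 0.45, limma adjusted p = 0.032), and Mtus1 (-0.94 ± 0.29, limma adjusted p = 0.03), named after their values were seen. With library medians set equal the counts were 26 higher and 11 lower, and with quantile normalization 34 and 8, so the direction of the genes near the shared shift rests on the scaling. Leaving out hepatoma library 1 or 2 or control library 1 or 2 left 0 genes called lower, and leaving out control library 3 left 1.

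In regenerating liver 14 of 18 listed were tested, and 5 rose, 0 fell and 9 did not pass, where 21.2% of 1703 genes were called higher and 0.763% lower by limma. At an unadjusted p under 0.05 in limma, 14 were higher and 0 lower. Every gene was listed for a deposited p-value under 0.05, so these counts were nearly fixed and nothing is read from them. The median was 0.64 against 0.53 for all genes tested. Tacc3 rose from 1.85 ± 0.998 to 10.9 ± 5.36 RPKM (2.01 ± 0.36, limma adjusted p = 0.038). Map7d1, a relative of Map7, rose by 0.96 ± 0.19 (limma adjusted p = 0.041), Tubg1 by 0.81 ± 0.16 (limma adjusted p = 0.04) and Map1s by 0.70 ± 0.13 (limma adjusted p = 0.032), all on the log2(RPKM + 1) scale. All 5 calls were lost with library medians set equal, with quantile normalization, and without control library 1 or 2 or regenerating library 1 or 2, one at a time, while 3 remained without regenerating library 4. Of 5 proliferation markers listed, 4 passed as higher here.

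Between hepatoma and regenerating liver 16 other microtubule genes were tested, and 15 were higher in hepatoma, 0 lower and 1, the plus-end protein Mapre2 (0.32 ± 0.15, limma adjusted p = 0.68), did not pass. Limma called 80.8% of 1673 genes higher and 4.0% lower. At an unadjusted p under 0.05 in limma the counts of these genes were 16 higher and 0 lower. The share of all genes at that limit is not given, so nothing is read from these counts. The median was 1.76 against 1.47. Clip2 (3.48 ± 0.16) and Map1s (3.10 ± 0.18) differed most. Clip2 (0.704 to 0.931 RPKM) and Fignl1 (0.240 to 0.554 RPKM) were under 1 RPKM in every regenerating library. Both reached the filter through hepatoma alone, so their place among the genes higher in hepatoma, before any rescaling, was fixed by that. In the other lists the largest differences were those of the modifying enzyme Ttll12 (2.40 ± 0.16) and of the chaperonin subunits Cct5 (2.39 ± 0.21) and Cct3 (2.29 ± 0.20). Tubg1 (1.90 ± 0.18), Tubgcp3 of the gamma-tubulin ring (1.18 ± 0.15) and Fignl1, a relative of severing enzymes (1.10 ± 0.14), lay closer to the median, and the difference of Tubgcp3 was -0.36 and of Fignl1 -0.44 with library medians set equal. Tuba1a exceeded all of these, and Tubb5 and Tuba1b lay between Clip2 and Cct5. With medians set equal 6 of the 16 were higher and 2 lower, and with quantile normalization 7 and 1.

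Of all 110 microtubule genes, 9 were listed in all 3 tables, the 4 genes and Clip2, Fignl1, Map4, Tacc3 and Tubg1. Clip2, Fignl1, Tacc3 and Map4, the main microtubule-associated protein of non-neuronal cells, had ratios of means above 1 in every table. For Map4 these were 1.58 in DEN, 5.2 in hepatoma and 1.6 in regenerating liver. Tubg1 was the exception, with ratios of 0.575, 7.18 and 1.86. The rat tables share their controls, so these are each comparison's own values side by side. Among all genes tested, 917 of 3684 in DEN, 7229 of 8233 in hepatoma and 1631 of 1703 in regenerating liver had a difference above 0. Map4 did not pass in DEN or regenerating liver (limma adjusted p = 0.058 and 0.086). Clip2 was too low to be tested in regenerating liver, and Fignl1 in both DEN and regenerating liver. The DEN call of Tubg1 was lost under both scalings.

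Genes with the most similar profile were looked for by the root-mean-square distance in log2(RPKM + 1) from the control mean. Over the 8 hepatoma and regenerating libraries and 1696 genes, the nearest to Stmn1 were Cdc20 (distance 0.35), an activator of the anaphase-promoting complex, Cdca3 (0.45), and Pttg1 (0.47), the securin of chromosome separation. Cdc20 was at 1.51 ± 0.871, 26.6 ± 15.8 and 72.0 ± 23.1 RPKM in control, regenerating liver and hepatoma (SD). The nearest to Tuba1b were Mcm6 (0.22) and Mcm3 (0.28), subunits of the replicative helicase, and Tubb5 (0.34). Tubb5 in turn was nearest to Mcm3 (0.33), Tuba1b (0.34) and Mcm6 (0.40). Tuba1a had other neighbours, Crip1 (0.30), a LIM domain protein, S100a10 (0.38), a partner of annexin A2, and Vim (0.42), the intermediate filament protein vimentin of mesenchymal cells. Crip1 was at 25.4 ± 7.14, 74.5 ± 11.8 and 3398 ± 1506 RPKM in the same order of groups. Summed RPKM of 6 listed stellate cell and fibroblast markers was 418 to 1114 in hepatoma and 19.1 to 58.0 in control liver, and its part in Tuba1a was not tested. Tuba1b ranked 29th among the genes near Tuba1a, at a distance of 1.32, although the pair shares sequence and neighbours on the chromosome.

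Over the 3 DEN libraries with tumours and 3684 genes, the nearest genes were others. Tuba1b was nearest to Ccnd1 (0.10), the G1 cyclin D1, Aurka (0.13), the mitotic kinase Aurora A, and Ssbp4 (0.13). Ccnd1 was at 10.6 ± 0.612 RPKM before and 25.04 ± 7.91 RPKM with tumours (SD, n = 3 each). Stmn1 was nearest to Derl3 (0.12), Cyp39a1 (0.13) and Srxn1 (0.16), and Tuba1a to Cfi (0.04), Serpina3n (0.05) and Nop58 (0.05). Tubb5, with a small difference, was nearest to Taf9b (0.02), Sowahb (0.02) and Ccdc125 (0.03). These distances are a description of a few libraries and carry no test.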

How the data were processed

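RNA-seq values of 17 liver libraries (6 mouse, 11 rat) were analysed in 5 groups. Per the labels' protocols RNA came from flash frozen liver, and libraries with an RNA integrity number above 7 were kept. Each of the 3 deposited tables gives a value for every library, and 0.001 marks a gene without reads. No unit is named in the headers. The authors' values were taken as RPKM from low mouse values. At the best depth, 37 to 55 of 436 to 502 such values per library lay within 1% of 1 to 4 reads, against a median of 2 to 3 over the depths tried. The rat tables were not checked this way. Per the file headers the tables also hold the log2 ratio of the group means and a p-value labelled holm, the name of an adjustment. Despite that label the p-value matched, within 1% in every listed gene, a two-sided comparison of linear RPKM without adjustment, per a recomputation from the deposited values. Aligner, build and counting are not given in the sources used here. One nameless line was dropped.

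RPKM were tested as log2(RPKM + 1), which understates changes of low genes, with R 4.3.3 and limma 3.58.1, two-sided, with robust variances and a trend. A gene was kept if the number of libraries at 1 RPKM or more was no less than the size of the smaller group. Since the tables are preselected at a p-value of 0.05, the Benjamini-Hochberg adjustment counted every annotated protein-coding gene, 21951 for mouse in GENCODE M21 and 23154 for rat in RefSeq GRCr8, and calls had an adjusted p under 0.05. Listing in a table still selects for a difference, and adjusted p-values can therefore be underestimates. Control values were identical in both rat tables in all 1752 shared genes, which allowed the direct comparison of hepatoma with regenerating liver. Only that comparison and ratios within a library were tested for the 4 genes. Scripts were tested on simulated data. Python 3.11.15 with scipy 1.17.1 did the remaining work.

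The 4 genes and all gene lists were chosen with earlier results of these data known. Named genes were the 4 genes, every other listed tubulin and stathmin, the 2 called genes with the largest change in each other list and comparison, the 3 nearest profiles per gene, and others stated in the text. Of these, 1 is not reported here by name and stays in the counts. Alternatives were another pseudocount (0.1), a filter at 5 RPKM or none, library medians set equal, quantile normalization, the replicate number as a block, 1 fit of all rat groups, and leaving out each library. Mouse sequence comparisons used GENCODE M21 transcripts and promoters the RefSeq table for GRCr8.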

Additional observations from a re-analysis of the deposited data

Results flagged for a closer look

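The differences of Tuba1a, Tuba1b and Tubb5 from control liver were not equal in the 2 rat models, by the test of hepatoma against regenerating liver, and that of Stmn1 passed only under some settings. On the log2(RPKM + 1) scale hepatoma was higher by 5.21 for Tuba1a, 3.39 for Tubb5, 2.91 for Tuba1b and 1.67 for Stmn1 (limma adjusted p = 2.6e-07, 4.6e-05, 2e-06 and 0.02), in 4 of 4 hepatoma libraries against all regenerating libraries each time. Of the 1673 genes tested, 80.8% were called higher in hepatoma and 84.5% had groups that did not overlap in that direction. The median gene tested differed by 1.47. The Stmn1 call was lost with library medians set equal (0.13) and with quantile normalization (0.25), limma adjusted p = 1 for each, and without any of 4 of the 8 libraries. Within libraries the Tuba1a to Tuba1b ratio was higher in hepatoma by 2.49 in log2, and the ratio of Stmn1 to the 3 tubulins differed by -1.65, lower in hepatoma (exact permutation p = 0.0286 each, 0.0429 adjusted over 3 ratios, 4 of 4 libraries apart). No library stood out from its group by Dixon's criterion in any of 14 sets of 4 values checked for the 4 genes and 3 ratios.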

How the results depend on the processing

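No member difference reversed under any of 116 alternatives against the reference groups, and sizes moved with the scaling. In DEN they were 2.36 (Stmn1), 1.44 (Tuba1a) and 1.05 (Tubb5) with library medians set equal, and 2.46, 1.40 and 1.36 with quantile normalization, where Tuba1b was 1.73. In hepatoma they were 3.43 (Stmn1), 5.11 (Tuba1a), 3.36 (Tuba1b) and 3.65 (Tubb5) with medians equal, and 3.95, 5.63, 4.02 and 4.26 with quantile normalization. In regenerating liver they were 2.79, 0.94, 1.48 and 1.30 with medians equal, and 2.85, 0.90, 1.55 and 1.36 with quantile normalization, in the same order. A pseudocount of 0.1 gave Tuba1a 7.38 in hepatoma and 2.00 in regenerating liver. Setting medians or quantiles equal takes out the shift shared by the listed genes by construction. For Stmn1 in hepatoma against regenerating liver these gave 0.13 and 0.25, and leaving out 1 library gave 1.47 to 1.96 (limma adjusted p up to 0.094). Same-numbered libraries did not deviate together (correlations -0.317 to 0.151), so the numbers were not taken as pairs. With the replicate block the ratio differences were 2.49 (Tuba1a to Tuba1b) and -1.65 (Stmn1 to the tubulins), each with an adjusted exact p of 0.188, since 4 pairs cannot pass. For the members between the rat models the block fit gave limma adjusted p-values from 2.8e-129 (Tuba1a) to 1.3e-14 (Stmn1). Values so small cannot be taken at face value from so few libraries, and no support for the calls is drawn from them. Leaving out 1 library gave 2.40 to 2.61 and -1.73 to -1.54 for these ratios, at an adjusted exact p of 0.0857, the smallest that size allows after adjustment. Counts of other microtubule genes moved as follows. In DEN the 4 higher became 6 with medians equal, 5 with quantile normalization, 2 with a filter at 5 RPKM and 2 to 4 without 1 library, and the 9 lower became 4 with medians equal, 2 with quantile normalization and 5 to 8 without 1 library. In hepatoma the 63 higher became 26 with medians equal, 34 with quantile normalization, 16 with 3 rat groups in 1 fit, where only genes in both rat tables can be tested, and 60 to 63 without 1 library. The 2 lower became 11 and 8 with these scalings, 0 with the replicate block or 3 groups in 1 fit, 1 with a filter at 5 RPKM or a pseudocount of 0.1, and 0 to 2 without 1 library. In regenerating liver the 5 higher became 0 with either scaling or the replicate block, 1 with a filter at 5 RPKM and 0 to 4 without 1 library. Between the rat models the 15 higher became 6 and 7, and the 0 lower became 2 and 1, with medians equal and with quantile normalization. Among single genes the difference turned for Tuba4a in DEN (0.09, quantile), Tubb2b in hepatoma (-0.60 medians, -0.15 quantile), and between the rat models for Tubgcp3 (-0.36 and -0.29) and Fignl1 (-0.44, medians). Of the tubulins and the 2 largest changes per list, medians equal lost 4 of 11 calls in DEN, 3 of 15 in hepatoma, 3 of 3 in regenerating liver and 3 of 8 between the rat models, and quantile normalization 6, 1, 3 and 2. The cause of changes other than those given by construction was not tested. Low genes are limited by depth, which is known for mouse libraries only.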
